A study of Mus musculus with 21 samples.

Results

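Reln, Vldlr, Lrp8 and Dab1 encode the secreted ligand Reelin, its receptors VLDLR and ApoER2 (the product of Lrp8), and the adaptor that the receptors need to signal. They were followed in cortex and hippocampus of mice of the GA-Camk2a line and of controls. Among the 64361 genes of the count table, these 4 were found by symbol, and all 4 passed the filter on low counts in every comparison. They were chosen by their level, in CPM (counts scaled to a common library total of 1000000), in each library of the 4 groups of tissue by genotype. Their own levels and differences are therefore a description, and so is any statement that they passed a threshold. P-values are given only for other genes.

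GA-Camk2a mice carry a poly-GA transgene that Camk2a-Cre switches on in excitatory neurons. Poly-GA is a dipeptide repeat protein made from the expanded repeat of C9orf72 in amyotrophic lateral sclerosis. The labels call the other mice only ctrl, so it is not known from them whether the controls carried Cre, and they give no sex. All mice were 30 to 40 weeks old, and per the study's methods the line had a C57BL/6J background and the GA-Camk2a mice came from very few litters and reached a humane endpoint. RNA was measured with prime-seq, which reads the 3′ ends of polyadenylated transcripts. The cortex gave 5 control and 6 GA-Camk2a libraries and the hippocampus gave 4 control and 6 GA-Camk2a libraries. By the number in the labels these came from 11 mice, of which 10 gave both tissues. Per the labels the libraries fell into batch 1 and batch 2, each with both genotypes of both tissues. Libraries are named here by the mouse number of the labels.

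Reelin is a large extracellular glycoprotein. In the developing brain it is secreted by Cajal-Retzius cells and guides the layering of the cortex and the hippocampus. In the adult it comes mainly from GABAergic interneurons, and it acts on synapses of excitatory neurons. It binds VLDLR and ApoER2, Src family kinases then phosphorylate Dab1 on the receptor tails, and PI3 kinase, Gsk3 and Crk adaptors carry the signal on. The same receptors also bind apolipoprotein E, clusterin, thrombospondin and selenoprotein P.

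The step that joins the receptors to Dab1 is a short motif in the receptor tail, asparagine-proline-valine-tyrosine, that the phosphotyrosine-binding domain of Dab1 holds. It is shown because both receptors share it and it is where Dab1 binds. The longest coding sequence of each gene in the GENCODE transcripts of the GRCm38 build was searched in frame for the codons of this motif. It was found once in Vldlr, from codon 834 of 873, once in Lrp8, from codon 855 of 955, and not in Reln or Dab1. Of 12 other genes of the lipoprotein receptor family, 3 held it, with Lrp1 and Lrp1b among them. Of 21534 genes with a coding sequence, 57 held it, a share of 0.265%. The coding bases are given 5′ to 3′ for the receptors, with the 12 bases of the motif in capitals.
Vldlr: aactttgacAATCCTGTGTACttgaagacc
Lrp8: aatttcgacAACCCAGTGTACaggaaaacg
Vldlr and Lrp8 had the same base at 22 of these 30 positions and at 10 of the 12 positions of the motif.

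Libraries held between 1048201 and 5888102 counts, with the median at 1975173. The 4 genes had low to moderate counts, 16 to 104 per library for Reln, 31 to 324 for Vldlr, 13 to 168 for Lrp8 and 65 to 468 for Dab1. The GFP row of the table had 0 to 4 counts, with at least 1 count in 2 of 9 control and 7 of 12 GA-Camk2a libraries, too few to check the genotype labels. The tissue labels were checked with marker genes. All 5 hippocampus markers were higher in control hippocampus than in control cortex (edgeR, adjusted p under 0.05). Of 4 cortex markers, Cux2 and Tbr1 were lower, Fezf2 was higher and Rorb did not pass. Rorb was 86.6 to 214 CPM in 17 of the 21 libraries, but 1455 CPM in control hippocampus 11, 4414 and 5303 CPM in GA-Camk2a hippocampus 30 and 16 and 612 CPM in GA-Camk2a cortex 41, all of batch 1. The choroid plexus, a tissue inside the ventricle beside the hippocampus, was also present in unequal amounts. The summed level of 3 choroid plexus markers was 1802 to 32651 CPM in control hippocampus, 1834 to 55421 CPM in GA-Camk2a hippocampus, 1583 to 2437 CPM in control cortex and 1682 to 8171 CPM in GA-Camk2a cortex.

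Reln, the ligand, was lower on average in GA-Camk2a cortex than in control cortex. Its levels in control cortex were 14.5, 19.1, 25.3, 28.8 and 35.2 CPM. In GA-Camk2a cortex the lowest level was 12.2 CPM, the median 16.9 CPM and the highest 23.5 CPM. All 6 GA-Camk2a libraries lay below the control mean, but the groups overlapped, with 1 of 6 below every control. Controls averaged 24.6 ± 8.09 CPM (SD, n = 5), whereas the GA-Camk2a mean was 17.1 ± 3.76 CPM (SD, n = 6). The fitted log2 fold change, with the batch as a term, was -0.60 ± 0.17 (SE). In bulk tissue, fewer cells that make Reelin and less Reln RNA per cell cannot be told apart.

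In hippocampus the order was the other way round. Reln in control hippocampus was 13.4, 15.7, 15.95 and 25.3 CPM. In GA-Camk2a hippocampus the lowest level was 20.6 CPM, the median 28.0 CPM and the highest 47.0 CPM. Here 4 of 6 GA-Camk2a libraries lay above every control, and the other two lay above all controls but mouse 11. Controls averaged 17.6 ± 5.28 CPM (SD, n = 4), the GA-Camk2a mean was 30.5 ± 10.1 CPM (SD, n = 6), and the fitted log2 fold change was 0.72 ± 0.22 (SE).

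**Figure D1:**
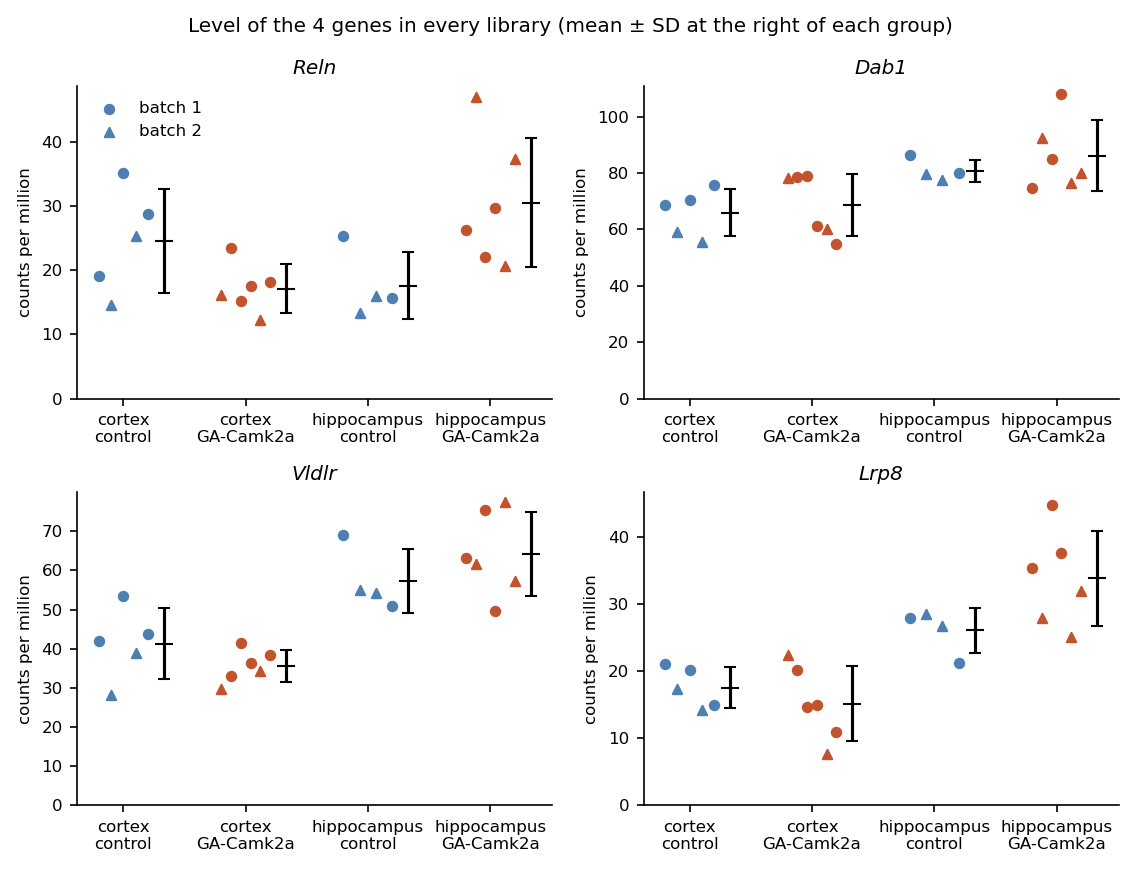
Level in CPM (y axis, linear from 0) of Reln, Dab1, Vldlr and Lrp8 in the 21 libraries by tissue and genotype (x axis), with circles for batch 1, triangles for batch 2, blue for control and orange for GA-Camk2a, and the mean ± SD in black. Reln in GA-Camk2a mice lies between 12.2 and 23.5 CPM in cortex and between 20.6 and 47.0 CPM in hippocampus, against 14.5 to 35.2 and 13.4 to 25.3 CPM in controls.

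Set against one another, the 4 groups ran for Reln from GA-Camk2a hippocampus, the highest, through control cortex and control hippocampus to GA-Camk2a cortex. Every pair of neighbours in that order overlapped. The log2 effect of the genotype in hippocampus less that in cortex was 1.28 ± 0.30 (SE) for Reln, and 0.475% of the 14751 genes fitted had a higher value. The spread of Reln within groups was wide. Its coefficient of variation was 21.9% to 33.0%, against 13.1% to 18.7% from counting alone.

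The batches gave unlike sizes for Reln in hippocampus and like sizes in cortex. In cortex batch 1 had a log2 fold change of -0.60 ± 0.20 (SE), and batch 2 had -0.60 ± 0.33. For the hippocampus it was 0.32 ± 0.23 (SE) within batch 1, where GA-Camk2a libraries ran from 22.1 to 29.7 CPM and the controls were 15.7 and 25.3 CPM. In hippocampus of batch 2 it was 1.19 ± 0.27 (SE), with GA-Camk2a libraries from 20.6 to 47.0 CPM and controls at 13.4 and 15.95 CPM. The direction was thus the same in each batch of each tissue, and the groups were separate only in batch 2 of the hippocampus. Without the 4 libraries of batch 1 with high Rorb, a choice made after the data had been seen, the log2 fold change of Reln was -0.59 ± 0.19 (SE) in cortex and 1.08 ± 0.22 in hippocampus, and the difference of the effects was 1.66 ± 0.31.

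Vldlr, the receptor best known for its part in migrating neurons, differed little between the genotypes. In control cortex it was 28.2, 39.0, 42.0, 43.8 and 53.5 CPM. In GA-Camk2a cortex the lowest level was 29.7 CPM, the median 35.4 CPM and the highest 41.5 CPM. All 6 GA-Camk2a libraries lay inside the range of the controls. In control hippocampus Vldlr was 50.8, 54.1, 55.0 and 69.2 CPM, and in GA-Camk2a hippocampus the lowest level was 49.7 CPM, the median 62.4 CPM and the highest 77.5 CPM. The log2 fold changes were -0.24 ± 0.12 (SE) in cortex and 0.13 ± 0.14 in hippocampus. Without GA-Camk2a 35 the hippocampal value was 0.04, and without control 11 it was 0.23. The order of the groups was GA-Camk2a hippocampus, control hippocampus, control cortex and GA-Camk2a cortex, and each pair of neighbours overlapped.

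Lrp8 encodes ApoER2, the receptor that also sits at excitatory synapses. In control cortex it was 14.2, 15.0, 17.3, 20.2 and 20.99 CPM, and in GA-Camk2a cortex the lowest level was 7.58 CPM, the median 14.8 CPM and the highest 22.5 CPM. The cortex groups overlapped throughout, with 1 GA-Camk2a library above all controls and 2 below. In control hippocampus Lrp8 was 21.2, 26.8, 27.9 and 28.5 CPM, and in GA-Camk2a hippocampus the lowest level was 25.1 CPM, the median 33.7 CPM and the highest 44.8 CPM. The log2 fold changes were -0.21 ± 0.22 (SE) in cortex and 0.34 ± 0.15 in hippocampus, where 4 of 6 GA-Camk2a libraries lay above every control. With 1 library left out they were -0.37 (without GA-Camk2a 16) to -0.05 (without GA-Camk2a 35) in cortex and 0.17 (without control 37) to 0.46 (without control 20) in hippocampus. The hippocampal difference was 0.66 ± 0.19 (SE) in batch 1 and -0.05 ± 0.18 in batch 2. Among the 4 groups, the ranges of control hippocampus and control cortex were the only neighbouring ranges that did not overlap for Lrp8. The share of all genes for which these 2 groups are separate is not given here.

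Dab1, the adaptor, varied least among the 4 genes in 3 of the 4 groups, with a coefficient of variation of 4.77% to 16.1%. In control cortex it was 55.7, 59.0, 68.7, 70.3 and 75.9 CPM, and in GA-Camk2a cortex the lowest level was 54.9 CPM, the median 69.6 CPM and the highest 79.0 CPM. In control hippocampus it was 77.5, 79.5, 80.0 and 86.4 CPM, and in GA-Camk2a hippocampus the lowest level was 74.8 CPM, the median 82.4 CPM and the highest 108.2 CPM. GA-Camk2a libraries lay on both sides of the controls in both tissues. The log2 fold change was 0.04 ± 0.12 (SE) in cortex and 0.04 ± 0.10 in hippocampus.

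**Figure D2:**
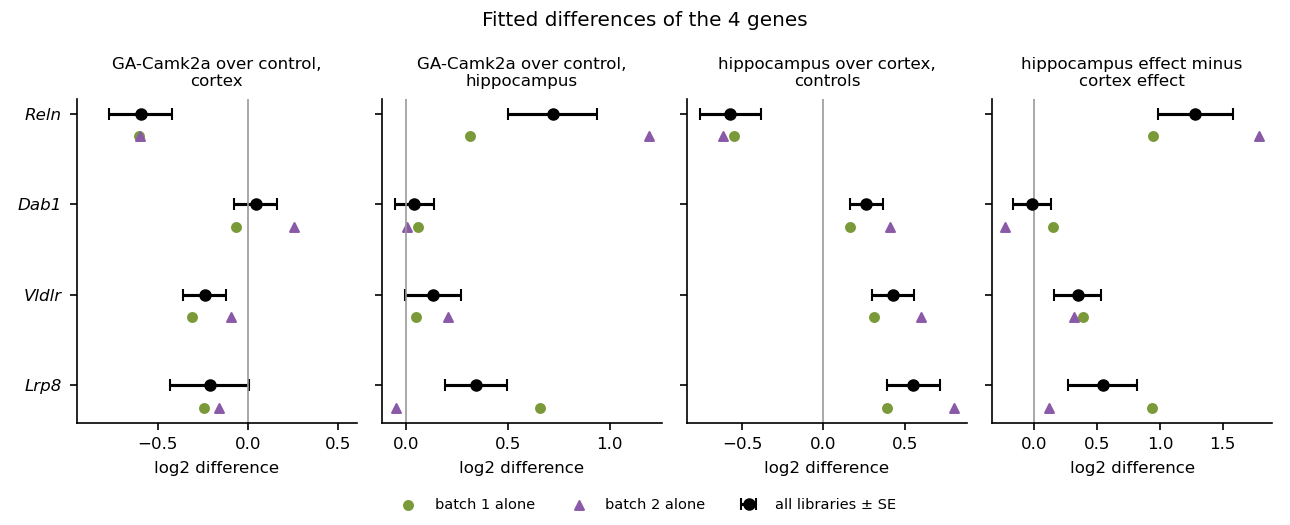
Fitted log2 differences (x axis) of the 4 genes (y axis) in the genotype comparison of each tissue, between the tissues of control mice, and between the genotype effects of the tissues, with all libraries (black, ± SE) and with each batch alone (green circles for batch 1, purple triangles for batch 2). Reln lies at -0.60 in cortex and at 0.72 in hippocampus, while Dab1 lies at 0.04 in both.

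As a description of the rule's own contrasts, an adjusted p under 0.05 (edgeR, Benjamini-Hochberg over all genes) was reached by Reln alone in each genotype comparison. That is 1 of 4 in cortex, where 12.5% of 13058 genes reached it, 6.35% higher and 6.17% lower in GA-Camk2a mice. It is likewise 1 of 4 in hippocampus, where 10.9% of 14884 genes reached it, 4.97% higher and 5.97% lower. For the difference between the tissues 0 of 4 reached it, against 0.4% of genes. There Reln did reach it in 4 of 21 fits with 1 library left out, those without cortex control 20, hippocampus control 11 or hippocampus GA-Camk2a 30 or 35, where it was 1.34 to 1.51. It also did so in 4 of 8 other fits. These were DESeq2 (1.31), another scaling (1.31), no filter (1.26) and the paired fit with the mouse as a replicate block (1.21). For this difference DESeq2 tested 8171 genes, against 14751 in the main fit. Reln did not reach the threshold with no batch term, limma-voom, a further scaling or thinned counts, nor in either batch alone. Reln kept its direction in all alternative fits but not its side of the threshold. With 1 library left out it stayed past the threshold in 6 of 11 fits in cortex, but not without control 31, 37 or 38 or GA-Camk2a 30 or 35, where the log2 fold change was -0.59 to -0.50. In hippocampus it stayed in 3 of 10, but not without control 20, 31 or 37 or GA-Camk2a 16, 23, 34 or 41, where it was 0.54 to 0.75.

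The regional pattern of control mice differed between the ligand and the receptors. The log2 fold change of hippocampus over cortex was -0.57 ± 0.19 (SE) for Reln, 0.43 ± 0.13 for Vldlr, 0.55 ± 0.16 for Lrp8 and 0.26 ± 0.10 for Dab1. The 4 control hippocampus libraries all lay above the 5 control cortex libraries for Lrp8 and for Dab1, and 3 of 4 did for Vldlr. The share of all genes with such separate groups is not given here. For Reln 1 of 4 lay below every control cortex library. Here 3 of 4 genes, all but Dab1, were past the threshold, against 16.3% of 14435 genes, 8.69% higher and 7.6% lower in hippocampus. With 1 library left out Reln stayed past it in 3 of 9 fits, but not without cortex control 31, 37 or 38 or hippocampus control 20, 31 or 37, where it was -0.59 to -0.42. Vldlr stayed in 3, but not without cortex control 11, 20, 37 or 38 or hippocampus control 11 or 20, where it was 0.36 to 0.46. Lrp8 stayed in 4, but not without cortex control 20, 37 or 38 or hippocampus control 11 or 20, where it was 0.46 to 0.56. The control libraries are shared with the genotype comparisons, so these values are not independent of them. Choroid plexus markers, Kl, Ttr and Folr1, were higher in control hippocampus in 3 of 3, and their part in these regional differences was not tested.

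Within a mouse, hippocampus and cortex could be compared directly. The hippocampus to cortex ratio of Reln ranged from 0.454 to 1.33 in 4 control mice, with 1 above 1, and from 1.45 to 2.05 in 6 GA-Camk2a mice, all above 1. For Lrp8 the ratio ranged from 1.33 to 1.65 in controls and from 1.38 to 3.31 in GA-Camk2a mice. For Vldlr it ranged from 1.01 to 1.95 and from 1.37 to 2.25, and for Dab1 from 1.10 to 1.44 and from 0.956 to 1.77. Of the 4 genes, only Reln had ratios that did not overlap between the genotypes. The share of all genes with such separate ratios was not computed. In the paired fit with the mouse as a replicate block, the control difference between hippocampus and cortex was -0.51 ± 0.21 (SE) for Reln, 0.43 ± 0.14 for Vldlr, 0.48 ± 0.17 for Lrp8 and 0.30 ± 0.11 for Dab1. In the same paired fit the genotype effect in hippocampus less that in cortex was 1.21 ± 0.25 (SE) for Reln and 0.63 ± 0.26 for Lrp8. For 5 of the 10 mice the libraries came from different batches.

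**Figure D3:**
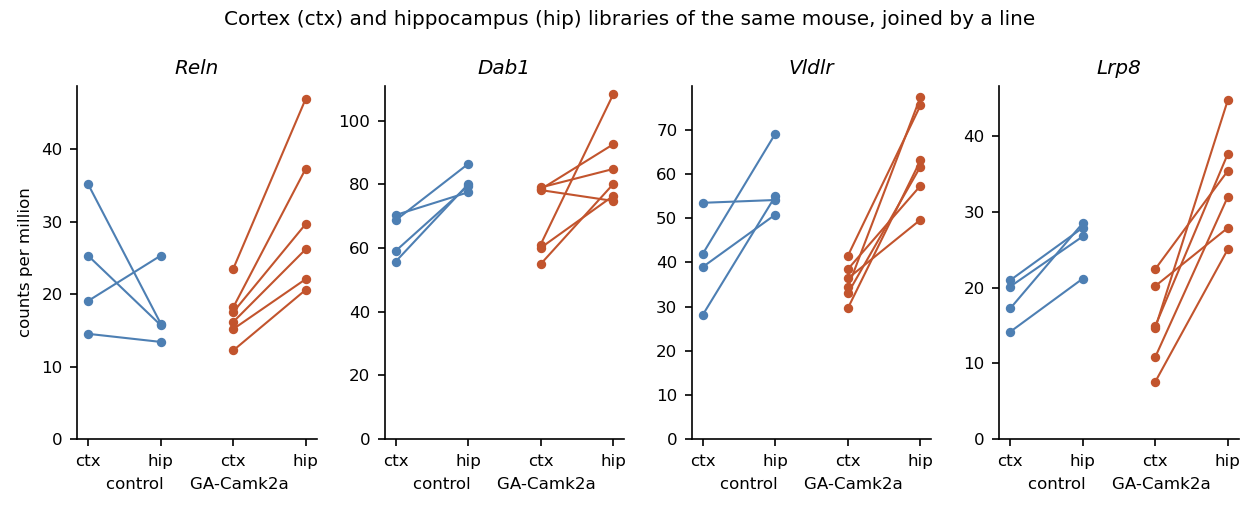
Level in CPM (y axis) of each gene in the cortex (ctx) and the hippocampus (hip) library of the same mouse, joined by a line, for 4 control mice (blue) and 6 GA-Camk2a mice (orange). For Reln all 6 GA-Camk2a lines go up from cortex to hippocampus, and 1 of 4 control lines does.

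The choroid plexus markers varied widely among the hippocampus libraries, so the 4 genes were set beside them. In the 3 GA-Camk2a libraries with 45838 to 55421 CPM of these markers, from mice 16, 30 and 35, Reln was 20.6 to 26.2 CPM and Vldlr 63.1 to 77.5 CPM. In the 3 with 1834 to 9524 CPM, from mice 23, 34 and 41, Reln was 29.7 to 47.0 CPM and Vldlr 49.7 to 61.7 CPM. Reln and Vldlr thus ran in opposite order between the high and the low GA-Camk2a libraries, and also within the 3 high ones. Within the 3 low ones they ran in the same order, both lowest in mouse 34 and highest in mouse 23. In controls Reln was 15.95 and 25.3 CPM in the low libraries and 13.4 and 15.7 CPM in the high ones. Control Vldlr was 54.1 and 69.2 CPM in the low libraries and 50.8 and 55.0 CPM in the high ones. It did not run opposite to Reln there. With the log2 level of the markers as a covariate, the hippocampal log2 fold change of Reln was 0.71 ± 0.19 (SE) and that of Vldlr 0.11 ± 0.12. With only the 2 control and 3 GA-Camk2a libraries under 20000 CPM they were 0.72 ± 0.26 and -0.22 ± 0.18. Both fits were added after the data had been seen. The direction of the small Vldlr difference therefore depended on which libraries were used, while that of Reln did not.

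**Figure D4:**
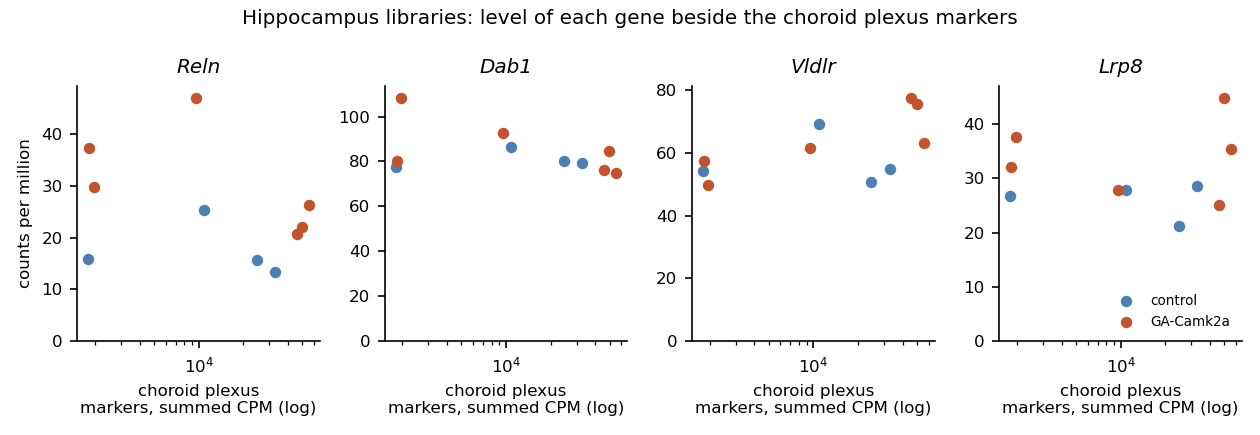
Level of each of the 4 genes in CPM (y axis) beside the summed level of the choroid plexus markers Ttr, Kl and Folr1 in CPM (x axis, log scale) in the 10 hippocampus libraries, blue for control and orange for GA-Camk2a. The 3 GA-Camk2a libraries with the highest marker level have Reln at 20.6 to 26.2 CPM and the 3 with the lowest at 29.7 to 47.0 CPM.

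Cells that make Reelin were looked for through markers. Of 5 genes that mark Reelin-rich interneurons, Npy was higher and Lamp5 and Sv2c were lower in GA-Camk2a cortex, and 0 of 5 passed in hippocampus by edgeR, DESeq2 or limma-voom, with 3 of 5 at an unadjusted p under 0.05 (edgeR). Their summed level was 844 to 923 CPM in control cortex, 867 to 1246 CPM in GA-Camk2a cortex, 641 to 705 CPM in control hippocampus and 473 to 761 CPM in GA-Camk2a hippocampus. The groups overlapped in both tissues. The mean was 882 CPM in control and 1012 CPM in GA-Camk2a cortex, and 670 CPM in control and 587 CPM in GA-Camk2a hippocampus. The part of these markers in the Reln levels was not tested. Of 7 markers of inhibitory neurons, Vip was higher in both tissues and Gad2 in hippocampus. Of 6 Cajal-Retzius markers only Calb2, which interneurons also express, was high enough to test, and it did not pass in either tissue. The summed level of 4 mitral cell markers of the olfactory bulb, where Reln is abundant, was 3.99 to 17.2 CPM in all libraries.

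Other tissue and cell markers moved with the genotype. All 6 striatum markers were lower in GA-Camk2a cortex, with a summed level of 119 to 203 CPM against 345 to 522 CPM in controls, and 0 of 3 passed in hippocampus by edgeR, DESeq2 or limma-voom, with 1 at an unadjusted p under 0.05 (edgeR). In cortex, this level and the genotype do not overlap and cannot be told apart. Of 5 markers of excitatory neurons, 4 were lower in each tissue. Their summed level was 1160 to 1603 CPM in GA-Camk2a cortex against 1812 to 2287 CPM in controls, and 1026 to 1398 CPM against 1973 to 2488 CPM in hippocampus. Astrocyte markers were higher, 3 of 5 in cortex and 4 of 5 in hippocampus, and so were microglia markers, 4 of 5 in each. The part of these markers in the levels of the 4 genes was not tested.

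Among 58 other genes of the pathway, 55 could be tested in each tissue (edgeR, adjusted over all genes). In cortex 5 were higher and 5 lower in GA-Camk2a mice, together 18.2% of those tested, beside 12.5% of all genes. In hippocampus 4 were higher and 12 lower, together 29.1%, beside 10.9% of all genes. The median log2 fold change over the 55 was -0.03 in cortex and -0.01 in hippocampus, beside -0.01 and 0.02 over all genes. For the difference between the tissues 0 of 55 passed by edgeR, DESeq2 or limma-voom, and 3 had an unadjusted p under 0.05 (edgeR). The lists were put together with earlier results of these data known, so these counts describe them only.

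The clearest differences were in Clu and Apoe, other ligands of the receptors. Of 6 such ligands, Clu, Apoe, Thbs1 and Selenop rose in cortex and Clu, Apoe and Selenop in hippocampus. The shares are 66.7% and 50%, beside 12.5% and 10.9% of all genes. In cortex Selenop ranked behind Thbs1 by adjusted p, and whether its call held without single libraries is not given. Over the whole pathway, 5 genes were called higher in cortex, but 3 with DESeq2 and 2 to 5 with 1 library left out. Clu encodes clusterin, an apolipoprotein and chaperone that VLDLR and ApoER2 take up. Its cortical mean was 880 ± 29.4 CPM (SD, n = 5) without and 1761 ± 292 CPM (SD, n = 6) with the transgene. The log2 difference was 1.00 ± 0.10 (SE), with an edgeR adjusted p of 8.69e-07. The hippocampal mean was 993 ± 59.6 CPM (SD, n = 4) without and 2014 ± 190.0 CPM (SD, n = 6) with the transgene. There the log2 difference was 0.97 ± 0.09 (SE), with an edgeR adjusted p of 1.57e-05. Apoe, the main lipid carrier of the brain, rose by 1.02 ± 0.11 (SE) on the log2 scale in cortex (edgeR adjusted p = 1.54e-06) and by 0.94 ± 0.11 in hippocampus (edgeR adjusted p = 6.50e-05). No GA-Camk2a library overlapped a control for Clu or Apoe in either tissue. Astrocyte and microglia markers were higher in the same groups, and their part in the Clu and Apoe differences was not tested.

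Thbs1, a matrix protein that binds both receptors, rose in cortex by 1.08 ± 0.33 (SE) on the log2 scale (edgeR adjusted p = 0.0371) at 2.91 to 7.15 CPM against 1.83 to 5.72 CPM, a call that was lost without control 31, 37 or 38 (edgeR adjusted p = 0.0654 to 0.166) and that could be tested in 7 of the 11 fits with 1 library left out. In hippocampus its value was 1.26 ± 0.39 (edgeR adjusted p = 0.0532). Selenop, the selenium carrier that ApoER2 takes up, rose by 0.40 ± 0.11 (SE) in hippocampus (edgeR adjusted p = 0.0240), a call that was lost without control 20, 31 or 37 or GA-Camk2a 16, 23 or 41 (edgeR adjusted p = 0.0553 to 0.0906). Spon1 and Lrpap1 did not pass. Of the proteases that cut Reelin, 3 of 5 could be tested, Adamts2, Adamts4 and Plat, and 0 passed in either tissue by edgeR or DESeq2. At an unadjusted p under 0.05 (edgeR) there were 2 in cortex and 1 in hippocampus, and limma-voom called 2 in cortex. Adamts2, which cuts the amino-terminal part, had a log2 fold change of 0.81 ± 0.27 (SE) in cortex (edgeR adjusted p = 0.0501) and -0.03 ± 0.27 in hippocampus (edgeR adjusted p = 0.964). Of the genes for receptor turnover and cleavage, 5 of 6 could be tested, with Mylip, Snx17, Adam10 and Psen2 among them. In both tissues 0 passed by edgeR, DESeq2 or limma-voom, and 0 had an unadjusted p under 0.05 (edgeR).

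Genes of the NMDA receptor complex, which ApoER2 couples to at synapses, were among those that fell. Of 12 co-receptors and partners, 3 fell in cortex and 5 in hippocampus, and 0 rose. The shares are 25% and 41.7%, beside 12.5% and 10.9% of all genes. Grin2a, an NMDA receptor subunit, had a control mean of 98.3 ± 28.0 CPM (SD, n = 5) and a GA-Camk2a mean of 61.3 ± 14.3 CPM (SD, n = 6) in cortex. The log2 difference was -0.72 ± 0.15 (SE), with an edgeR adjusted p of 0.0023. In hippocampus its control mean was 222 ± 20.4 CPM (SD, n = 4) and its GA-Camk2a mean 126 ± 17.3 CPM (SD, n = 6), and the log2 difference was -0.85 ± 0.10 (SE), with an edgeR adjusted p of 9.92e-05. Grin2b had -0.62 ± 0.13 (edgeR adjusted p = 0.00234) in cortex and -0.64 ± 0.12 (edgeR adjusted p = 0.00309) in hippocampus. Dlg4, the scaffold PSD-95, had -0.47 ± 0.14 (edgeR adjusted p = 0.0295) in cortex and -0.54 ± 0.09 (edgeR adjusted p = 0.000934) in hippocampus. Grin1, the obligatory subunit, fell in hippocampus by 0.48 on the log2 scale (edgeR adjusted p = 0.0136). The cortex call of Dlg4 was lost without control 20 or 31 or GA-Camk2a 16 or 23 (edgeR adjusted p = 0.0521 to 0.208), and without control 31 its log2 fold change was -0.23. That of Grin1 was lost without control 31 (edgeR adjusted p = 0.0523). The integrin genes Itga3 and Itgb1, the ephrin-B genes and Nrp1 did not pass in either tissue, and excitatory neuron markers were lower in the same groups.

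Downstream of Dab1, 25 kinases, adaptors and effectors were tested. In cortex 2 fell, with Gsk3b among them, and in hippocampus 7 fell and 1 rose. These calls are 8% in cortex and 32% in hippocampus, beside 12.5% and 10.9% of all genes. Gsk3b, the tau kinase that the pathway restrains, fell by 0.48 in cortex (log2, edgeR adjusted p = 0.0148) and by 0.32 in hippocampus (edgeR adjusted p = 0.0303), calls lost without control 31 or 37 or GA-Camk2a 35 in cortex (edgeR adjusted p = 0.0591 to 0.0611) and without any 1 control or GA-Camk2a 41 in hippocampus (edgeR adjusted p = 0.0575 to 0.0838). Stk25, a kinase that acts against Reelin on Golgi placement, fell by 0.50 in hippocampus (edgeR adjusted p = 0.0237), lost without control 11, 20 or 37 or GA-Camk2a 16 or 23 (edgeR adjusted p = 0.0509 to 0.0929). Wasl and Cfl1, which act on actin, fell in hippocampus by 0.38 (edgeR adjusted p = 0.0255) and 0.28 (edgeR adjusted p = 0.0309). The Wasl call was lost without control 31 or GA-Camk2a 35 (edgeR adjusted p = 0.0521 to 0.0964), and that of Cfl1 without control 31 or 37 or GA-Camk2a 16 or 23 (edgeR adjusted p = 0.0523 to 0.099). Further calls in hippocampus, named after their values were seen, were Gsk3a and Pik3r2 (lower), Pik3r1 (higher) and, among the partners, Mapk8ip2 (lower). The kinases of Dab1, Fyn and Src, had cortical log2 fold changes of 0.04 ± 0.11 (SE) and -0.03 ± 0.12. Their hippocampal values were -0.04 ± 0.09 and -0.12 ± 0.11. Of 4 genes that degrade Dab1, Rnf7, part of the Cul5 ubiquitin ligase, rose in cortex by 0.29 ± 0.09 (SE, edgeR adjusted p = 0.0314), a call lost without control 11 or 31 or GA-Camk2a 34 (edgeR adjusted p = 0.0605 to 0.0929).

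**Figure D5:**
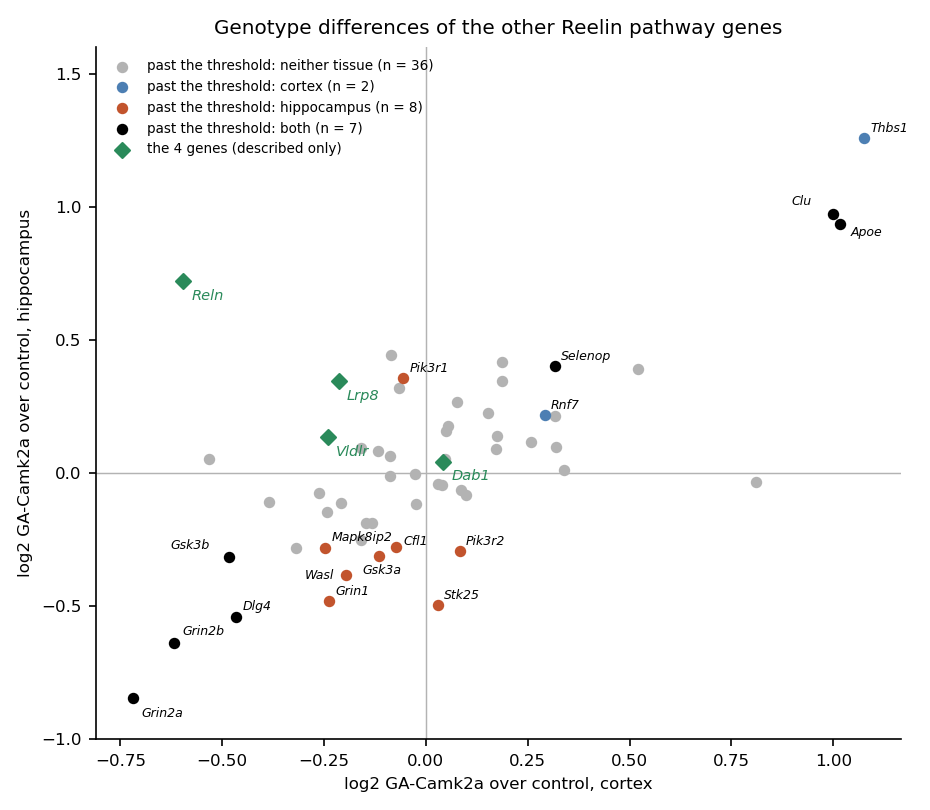
Log2 fold change of GA-Camk2a over control in cortex (x axis) and hippocampus (y axis) of 53 of the 55 other pathway genes tested (circles, coloured by the tissue in which they passed an adjusted p of 0.05) and of the 4 genes (green diamonds, described only). Of the 53, 7 passed in both tissues, 2 in cortex alone and 8 in hippocampus alone, and all 7 of the first had the same sign in both, while Reln lies at -0.60 in cortex and 0.72 in hippocampus.

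These pathway counts leaned on single libraries. Without control 31 they were 6 instead of 10 in cortex and 7 instead of 16 in hippocampus. In hippocampus they were also 10 without control 11, 9 without control 20, 9 without control 37 and 10 without GA-Camk2a 23. Without the libraries with high Rorb they were 8 in cortex and 8 in hippocampus. Batch 1 alone gave 5 calls in cortex and 1 in hippocampus, and batch 2 alone gave 3 and 8, each with fewer libraries.

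Of the 12 other lipoprotein receptor family genes, 10 could be tested in cortex and 11 in hippocampus. In cortex Lrp12, Sorl1 and Lrp11 fell by 0.74, 0.45 and 0.38 (log2, edgeR adjusted p = 0.0197, 0.0221 and 0.0311). They are 30% of those tested, beside 12.5% of all genes. In hippocampus 0 of 11 passed by edgeR or DESeq2, 1 passed by limma-voom and 3 had an unadjusted p under 0.05 (edgeR). The cortex call of Lrp12 was lost without control 31 or GA-Camk2a 23 (edgeR adjusted p = 0.0598 to 0.0966), that of Sorl1 without control 11 or 31 or GA-Camk2a 23 or 35 (edgeR adjusted p = 0.0538 to 0.125) and that of Lrp11 without control 11 or 31 or GA-Camk2a 34 or 41 (edgeR adjusted p = 0.0523 to 0.149). Other docking sequences were not searched for, and none of the 3 holds the asparagine-proline-valine-tyrosine motif in its coding sequence. Of those that do, Lrp1 had a log2 fold change of 0.05 ± 0.11 (SE) in cortex and 0.19 ± 0.09 in hippocampus, and Lrp1b had -0.29 ± 0.16 and -0.27 ± 0.14, and neither passed in either tissue. Between the tissues of control mice 3 of 11 were higher and 1 was lower in hippocampus, together 36.4%, beside 16.3% of all genes. Lrp4, the agrin receptor, was lower by a log2 difference of -0.47 ± 0.15 (SE, edgeR adjusted p = 0.0363), a call that held without cortex control 11 and was lost in the 8 other fits with 1 library left out (edgeR adjusted p = 0.0508 to 0.112). Lrp6, a Wnt co-receptor, and Lrp10 were higher in hippocampus than in cortex, as Vldlr and Lrp8 were, by 0.75 ± 0.16 (SE, edgeR adjusted p = 0.00353) and 0.74 ± 0.16 (edgeR adjusted p = 0.00463). Lrp1b was higher by 0.52 ± 0.14 (edgeR adjusted p = 0.0132), a call that was lost without hippocampus control 11 (edgeR adjusted p = 0.0634).

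Between the tissues of control mice, 11 of 54 pathway genes passed, 7 higher and 4 lower in hippocampus. That is 20.4% of those tested, beside 16.3% of all genes. Nrp1, the neuropilin that can join VLDLR, was higher by 1.77 ± 0.21 (SE, edgeR adjusted p = 1.98e-05). Grin2a and Grin2b were higher by 1.13 ± 0.14 (edgeR adjusted p = 2.15e-05) and 0.75 ± 0.15 (edgeR adjusted p = 0.00193). The pathway count was 9 in the paired fit with the replicate block, and between 5 and 14 with 1 library left out, lowest without hippocampus control 11 and highest without cortex control 31. It was 6 or 7 without cortex control 20, 37 or 38 or hippocampus control 20 or 37.

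The genes whose log2 CPM was most like that of each of the 4 were ranked by Pearson's r over the 21 libraries, which share tissue, genotype, batch and depth. This is a description over 11568 genes. For Reln they were Epc1 (r = 0.73), Utrn (r = 0.72) and Fam57a (r = 0.69). For Vldlr they were Wdr26 (r = 0.91), Trim24 (r = 0.89) and Otud4 (r = 0.88). For Lrp8 they were Ubr2 (r = 0.88), Trip12 (r = 0.87) and 9930021J03Rik (r = 0.87). For Dab1 they were Styx (r = 0.78), Tmod2 (r = 0.78) and Ankrd10 (r = 0.77). Among the 4 genes themselves, r was 0.69 for Dab1 and Lrp8, 0.62 for Vldlr and Lrp8 and 0.38 for Dab1 and Vldlr. With Reln, r was lower, at 0.20 for Dab1, 0.31 for Vldlr and 0.32 for Lrp8. The values for Vldlr and Lrp8 were near that of Dab1 and Vldlr.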

How the data were processed

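The authors demultiplexed the reads, trimmed them, mapped them to GRCm39 with an added GFP row and counted them per gene with zUMIs. The deposited values are whole-number counts, not normalized. The submitters' processing notes name FastQC 0.11.8, cutadapt 1.12, STAR and DESeq2 1.44. The annotation release, the use of strand and introns, and whether UMIs or reads were counted are not given in the sources used here. In the GRCm38 annotation, 7 other genes overlap Reln, 2 overlap Dab1 and 2 antisense genes overlap Lrp8, so their reads may mix. Symbols came from that annotation by Ensembl number. Its coordinates served only to find these overlaps and to cut out the coding sequences, and none are printed. CPM were computed here over all genes without the GFP row.

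Genotypes were compared per tissue, tissues within controls, and genotype effects between tissues, with edgeR 4.0.16 in R 4.3.3 (TMM, filterByExpr with a minimum count of 10, quasi-likelihood test, library batch as a term), and p-values were adjusted with Benjamini-Hochberg. The study's methods name DESeq2 with no covariates. Alternatives were no batch term, DESeq2 1.42.0, limma-voom (limma 3.58.1), other scalings, no filter, thinned counts, single batches, leaving out each library and, added after the data had been seen, fits on choroid plexus and Rorb levels. Libraries of both tissues with the same label number were taken as 1 animal, so a replicate block was fitted for comparisons between tissues. The correlation over genes of their deviations was -0.23 to 0.30 over 10 mice, with a median of 0.05, so the pairing rests on the labels. The study's text gives the control numbers of the tissues the other way round, and the labels were followed. The genotypes were different mice and were not paired. Replicates within groups differed by more than sampling noise (chi-square per degree of freedom 2.10 to 15.1 over 46 pairs). The fits were tested on simulated data. Genes named are the 4, pathway and family genes past an adjusted p of 0.05 (at most 12 per genotype comparison and 6 between tissues), the 3 most similar genes each, and markers that moved. A few genes counted in the lists are not reported here by name. The genes and lists were chosen with earlier results of these data known.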

Additional observations from a re-analysis of the deposited data

Results flagged for a closer look

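Reln had a log2 genotype effect in hippocampus less that in cortex of 1.28 ± 0.30 (SE). It stands out because every GA-Camk2a cortex library lay below the mean of its controls and every GA-Camk2a hippocampus library above the mean of its controls. Since the gene was chosen on these values, the difference is a description only, and so is its place beside the threshold given above.

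Of 68 sets of 4 to 6 libraries of the 4 genes and the named pathway genes, 2 held a library far from the others, a rate below the 1 in 20 that chance gives. Dlg4 was 225 CPM in control cortex of mouse 31, with the next library at 126 CPM. Clu was 1652 CPM in GA-Camk2a hippocampus of mouse 30, with the next at 2021 CPM. No library of Reln, Vldlr, Lrp8 or Dab1 stood apart in this way.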

How the results depend on the processing

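Log2 fold changes of Dab1 (in both genotype comparisons and in the difference of effects), of Lrp8 in hippocampus (batch 2 alone) and of Vldlr in hippocampus changed sign in some fit, and Reln kept its sign in every fit of each comparison. Leaving out each library in turn gave -0.68 to -0.50 for Reln in cortex, 0.54 to 0.96 in hippocampus, -0.75 to -0.42 between control tissues and 1.17 to 1.51 for the difference of effects. Batch 1 alone gave 0.32 for Reln and 0.66 for Lrp8 in hippocampus, and 0.93 for the Lrp8 difference of effects. Batch 2 alone gave 1.19 for Reln and -0.048 for Lrp8 in hippocampus, 0.25 for Dab1 in cortex, 0.41 for Dab1 and 0.80 for Lrp8 between control tissues, and 1.79 for Reln, -0.23 for Dab1 and 0.12 for Lrp8 in the difference of effects. The cause was not tested. Batch 1 alone called 5, 1 and 2 pathway genes in cortex, hippocampus and between control tissues, and batch 2 alone called 3, 8 and 4, with fewer samples. Leaving out each library gave 6 to 9, 7 to 16 and 5 to 14. Thinned counts called 10 in hippocampus and 6 between control tissues, where DESeq2 and no filter each called 7. Using only the hippocampus libraries low in choroid plexus markers, a choice made after seeing the data, called 6 and gave -0.22 for Vldlr. Leaving out the 4 libraries with high Rorb, chosen likewise, called 8 in hippocampus and 5 between control tissues and gave 1.66 for the Reln difference of effects. For the difference of effects, every alternative called 0 pathway genes. The replicate block gave 1.21 for the Reln difference, then past the threshold, and moved no value by more than 1 SD. Reln and Lrp8, with as few as 16 and 13 counts in a library, are limited by depth.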
